A study of Homo sapiens with 34 samples.

Results

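Interferon-stimulated genes are the genes that cells switch on when interferon, the secreted alarm signal of virus infection, reaches them. The 41 genes described here were listed by symbol, with earlier results of these data known. All 41 were found among the 23368 symbols of the count files. RNA was sequenced from 6 human cell lines derived from blood cancers. Each line was either left untreated (control) or given etoposide at 10 µM for 4 hours. Etoposide is a chemotherapy drug that keeps topoisomerase II from resealing the DNA it has cut. The pre-B lines NALM6 and 697 come from acute lymphoblastic leukemia. RAMOS is a B line from a Burkitt's lymphoma, JURKAT is a T line from an acute T cell leukemia, THP1 is a monocyte line from an acute monocytic leukemia, and U937 is labelled as a monocyte line from a histiocytic leukemia. No group received interferon or carried an engineered allele, per the labels. The groups held 3 libraries each except treated 697 and untreated U937, which held 2 each, 34 libraries in all.

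In the textbook pathway, type I interferon binds the receptor pair IFNAR1 and IFNAR2, and the kinases JAK1 and TYK2 then activate STAT2. STAT2 and IRF9 are parts of a complex that binds the interferon-stimulated response element in front of many target genes. Interferon gamma uses another receptor, and its signal acts through another element, the gamma-activated site. IRF1 and IRF7 are both products of this pathway and factors that bind related elements themselves, and some targets are known to respond to IRF1, IRF3 or IRF7 when no interferon is present. The products range from sensors of viral RNA to proteins that stop translation, degrade RNA or hold virus particles at the membrane.

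Library depth ran from 8.18 to 37.1 M counts. The lines carried the markers of their labels. The summed level of pre-B markers was 3954 to 4109 CPM in untreated NALM6 and 4022 to 4105 CPM in untreated 697. CPM are counts per 1 M counts of the library, after scaling between the libraries of the same line. Mature B markers summed to 2436 to 2494 CPM in untreated RAMOS and T cell markers to 2272 to 2417 CPM in untreated JURKAT. Myeloid markers summed to 3270 to 3555 CPM in untreated THP1 and 4776 to 4780 CPM in untreated U937. Markers of plasmacytoid dendritic cells, the blood cells best known for making interferon, summed to at most 2.04 CPM in every library. In the file names the untreated NALM6 and 697 libraries carry 1 pool identifier and the treated ones another, so that pool and treatment cannot be told apart in these lines. In the other lines untreated and treated libraries share an identifier. The labels do not say whether replicates are separate cultures, so p-values measure the spread between these samples only, which may be technical. In bulk RNA, fewer cells of a type and less RNA per cell cannot be told apart.

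Members of 2 gene clusters went opposite ways in NALM6, and their promoters are shown for that reason. OAS1 and OAS3 lie next to each other on chromosome 12, and IFIT1 and IFIT3 share a cluster on chromosome 10. Each sequence below is the 170 bases before the gene's start on its own strand, from RefSeq on GRCh38.p14, and capitals mark the core of the response element on either strand, GAAANNGAAA. The windows are chr12:112906792-112906961 for OAS1, chr12:112938304-112938473 for OAS3, chr10:89392453-89392622 for IFIT1 and chr10:89327827-89327996 for IFIT3, all on the plus strand.
OAS1: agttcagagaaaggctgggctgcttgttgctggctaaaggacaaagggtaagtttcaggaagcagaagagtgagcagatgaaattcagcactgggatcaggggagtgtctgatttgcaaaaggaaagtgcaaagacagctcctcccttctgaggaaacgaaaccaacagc
OAS3: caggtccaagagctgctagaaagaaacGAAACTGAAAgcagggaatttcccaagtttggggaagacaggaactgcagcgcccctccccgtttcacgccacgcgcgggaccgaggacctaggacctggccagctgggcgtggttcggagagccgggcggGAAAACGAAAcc
IFIT1: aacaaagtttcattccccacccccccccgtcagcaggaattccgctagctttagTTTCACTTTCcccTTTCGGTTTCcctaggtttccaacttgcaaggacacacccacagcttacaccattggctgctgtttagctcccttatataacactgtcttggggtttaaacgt
IFIT3: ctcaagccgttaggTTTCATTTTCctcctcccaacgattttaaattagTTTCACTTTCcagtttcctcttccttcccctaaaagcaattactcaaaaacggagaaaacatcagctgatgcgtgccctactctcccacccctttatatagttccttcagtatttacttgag

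The OAS1 window holds no exact core, and each of the other windows holds 2. Near its end the OAS1 window does hold gaaacgaaa, in which 1 base instead of 2 parts the GAAA stretches. The search did not count such forms, here or in the shares below. The part of the element in the opposite changes of these genes in NALM6 was not tested. Promoter windows from 250 bases before to 50 bases after the start were found for 34 of the 41 members, 1 of them under the current symbol of DDX58, RIGI. The core stood in 21 of these 34 windows (61.8%), against 996 of 27305 windows of all genes (3.65%). The gamma-activated site, TTCNNNGAA on either strand, stood in 10 member windows (29.4%) against 7.88% of all windows. The κB motif, searched on the gene's own strand only, stood in 4 (11.8%) against 8.04%. Both κB shares miss matches on the other strand. A match is a stretch of letters and not a measured binding site.

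Over the 6 lines, 13 members were only ever called higher, 12 only ever lower, 13 higher in at least 1 line and lower in another, and OASL, USP18 and EPSTI1 were called in no line. These counts depend on how many lines could test a member. Of the 22 members tested in all 6 lines, 10 were called in both directions, a share near the 37.6% of all genes tested in all 6. IRF7 was the only member called higher in all 6 lines, and its JURKAT call was lost in 8 of 13 alternative analyses. Calls are from edgeR's quasi-likelihood test at an adjusted p under 0.05, adjusted over all genes tested in the line.

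**Figure D1:**
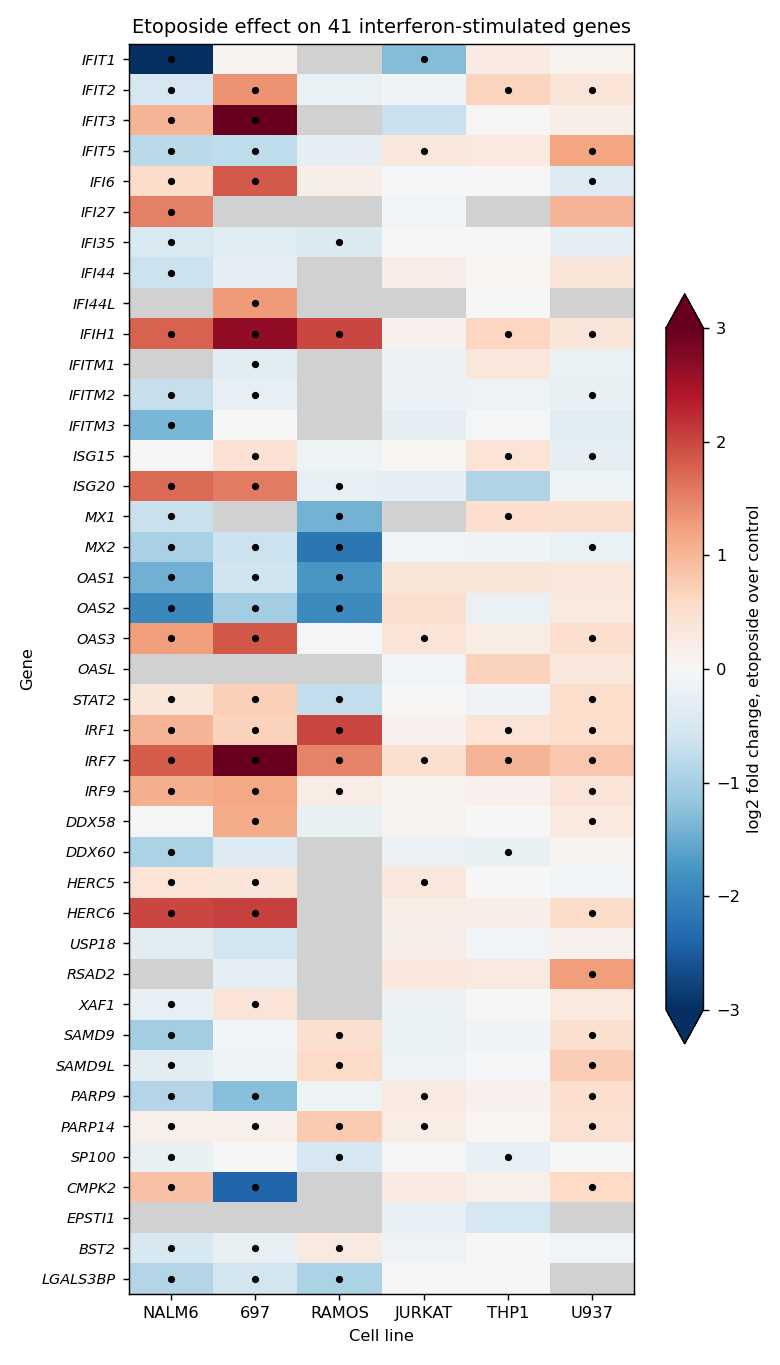
Log2 fold change of etoposide over control for each of the 41 members (rows) in each cell line (columns), with the colour scale ending at 3 in either direction. The IRF7 row is red in all 6 columns, the OAS2 row is blue in the B-lineage columns, and IFIT1 in NALM6 holds the deepest blue.

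In NALM6, 36 members had enough counts to be tested, of which 14 were higher and 19 lower after etoposide. Of all 12589 genes tested there, 41.3% were called higher and 40.3% lower. In 697, 17 of 37 tested members were higher and 10 lower, against 39.4% and 36.9% of all genes. In RAMOS only 24 members could be tested, with 8 higher and 9 lower, against 34.2% and 35.5%. The B-lineage lines therefore changed in more than 2 of every 3 genes tested, and a called member there is no rarity. Beside the RAMOS counts, mature B markers fell from 2436 to 2494 CPM to 1586 to 1636 CPM with 5 of 5 called lower, pre-B markers went from 1163 to 1193 CPM to 832 to 843 CPM, and myeloid markers from 56.7 to 61.9 CPM to 33.8 to 36.6 CPM. Their part in the result was not tested.

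JURKAT changed least. There 6 of 39 tested members were higher and 1 was lower, against 6.71% and 6.27% of all genes. Leaving out 1 library gave 1 to 5 higher (1 without treated library 1) and 0 to 1 lower (0 without untreated library 3 or treated library 1), and the replicate block gave 2 higher. T cell markers in JURKAT went from 2272 to 2417 CPM to 1917 to 2054 CPM, with 4 called lower, and their part in the result was not tested. In THP1 it was 6 higher and 2 lower of 40 tested, against 14% and 17%. In U937 it was 16 higher and 4 lower of 38 tested, against 22.1% in each direction. The median log2 change of the tested members was 0.33 in U937, where that of all genes was 0.01, and -0.29 in NALM6, where that of all genes was 0.01. It was 0.01 in 697, -0.17 in RAMOS, 0.02 in JURKAT and 0.02 in THP1, where the medians of all genes were 0.05, -0.00, -0.00 and 0.00.

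The median absolute log2 change of the tested members was 0.88 in NALM6, 0.60 in 697, 0.50 in RAMOS, 0.18 in JURKAT, 0.14 in THP1 and 0.36 in U937. For all genes tested it was 0.62, 0.66, 0.36, 0.13, 0.16 and 0.23 in the same order. The summed level of all 41 members went from 1386 to 1397 CPM in NALM6, from 1055 to 1202 CPM in 697, from 671 to 709 CPM in RAMOS, from 784 to 818 CPM in JURKAT, from 817 to 836 CPM in THP1 and from 1075 to 1148 CPM in U937 (group means). Between 0 and 2 members a line passed the count minimum through 1 group only, among them IFIT1 and IFI27 in NALM6. Untested members reached at most 1.76 CPM in any library.

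Untreated cells already expressed many of the members, and which ones differed between lines. A mean of at least 1 CPM was reached by 35 members in NALM6, 35 in 697, 23 in RAMOS, 39 in JURKAT, 36 in THP1 and 34 in U937. RAMOS had a mean under 1 CPM of IFIT1, IFIT2, IFIT3, all 3 IFITM genes and both HERC genes. HERC5, the ligase that attaches ISG15 to other proteins, stood at 101 CPM in NALM6, 78.9 CPM in 697, 29.7 CPM in JURKAT, 26.3 CPM in U937 and 5.15 CPM in THP1, but at 0.160 CPM in RAMOS. IFITM2, a membrane protein that blocks virus entry, stood at 297 CPM in NALM6 and 0.686 CPM in RAMOS.

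Other members ran the other way between lines. ISG20, an exonuclease that degrades RNA, had its highest untreated mean in RAMOS, at 84.3 CPM, while the other lines lay between 0.688 and 3.55 CPM. OAS1 stood at 49.4 CPM in RAMOS and between 1.27 and 7.72 CPM elsewhere. MX2, a GTPase that restricts retroviruses, stood at 136 CPM in U937 and between 7.18 and 26.5 CPM elsewhere. CMPK2, a mitochondrial nucleotide kinase, stood at 41.6 CPM in JURKAT and 0.277 CPM in RAMOS. Levels between lines are described and not tested, because line and pool identifier coincide in part. CPM were also scaled within each line and not between lines.

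**Figure D2:**
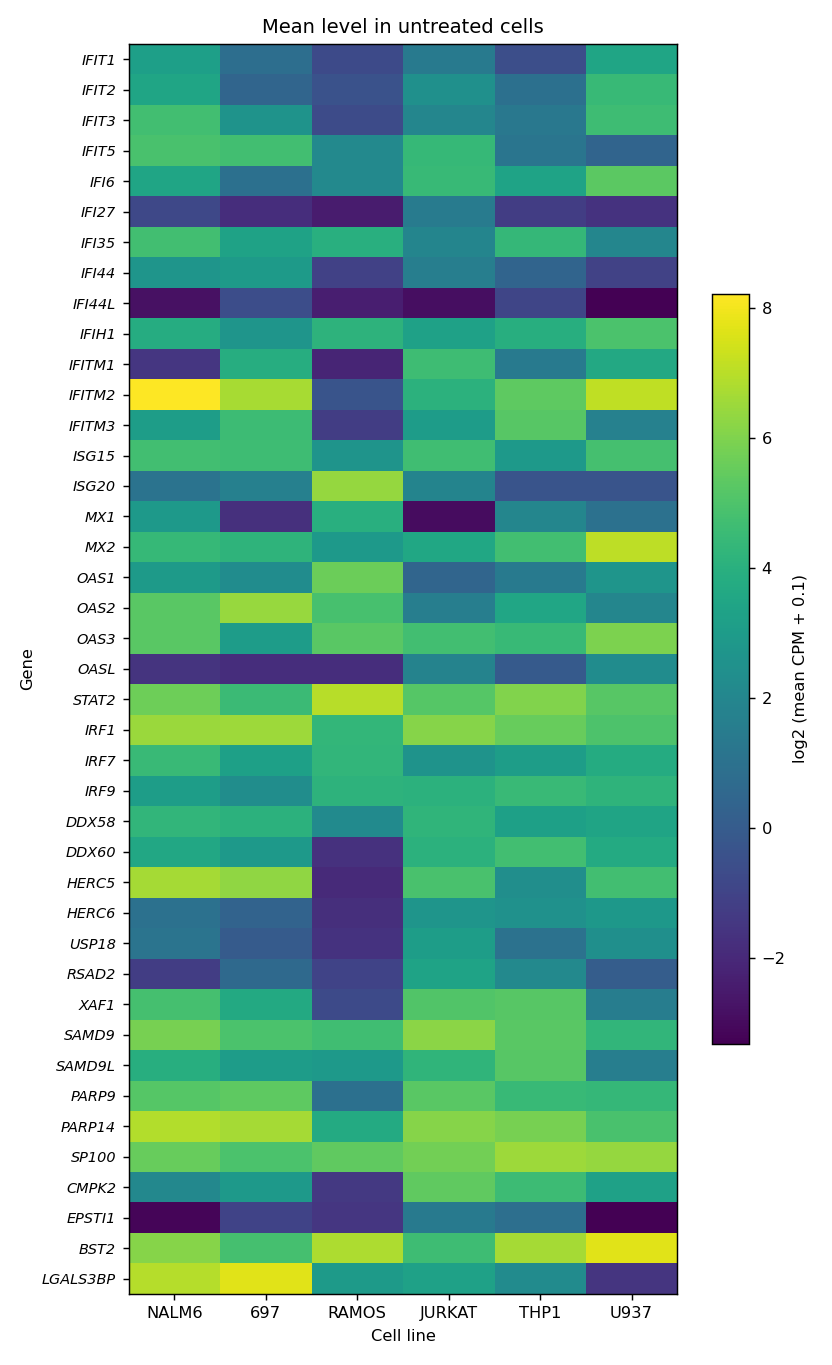
Mean level of each member (rows) in the untreated libraries of each line (columns), as log2 of the mean CPM plus 0.1, to be read along a row because levels of different genes are not corrected for length. RAMOS has the most dark cells, and LGALS3BP is bright in the pre-B lines only.

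Of the regulators among the members, IRF7, the factor that amplifies interferon production, was called higher in all 6 lines, IRF1 in 5 and IRF9 in 4. STAT2 was called higher in 3 lines and lower in RAMOS. Of 10265 genes tested in all 6 lines, 117 (1.14%) were called higher in all 6, and of the 22 members tested in all 6 lines IRF7 was the only one, with a JURKAT call that 8 of 13 alternative analyses lost. IRF7 stood at 9.27, 8.73 and 10.2 CPM in the untreated and 78.9 and 77.8 CPM in the treated libraries of 697, 8.28-fold higher, with a log2 fold change of 3.05 ± 0.087 (SE, adjusted p = 8.82e-15). In NALM6 it stood at 22.1, 24.4 and 21.2 CPM in the untreated and 79.3, 79.7 and 83.1 CPM in the treated libraries (1.82 ± 0.073, adjusted p = 1.86e-26), and in RAMOS at 18.2, 20.7 and 18.2 CPM in the untreated and 54.0, 50.7 and 57.9 CPM in the treated libraries (1.497 ± 0.072, adjusted p = 2.18e-24). In these B-lineage lines the treated libraries lay at least 2-fold above every untreated one.

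The IRF7 rise was smaller in the other lines. It stood at 9.08, 7.94 and 8.14 CPM in the untreated and 17.97, 18.1 and 14.4 CPM in the treated libraries of THP1, a log2 change of 1.01 ± 0.11, adjusted p = 3.76e-09. In U937 it stood at 15.1 and 12.4 CPM in the untreated and 27.5, 24.4 and 20.9 CPM in the treated libraries (0.81 ± 0.11, adjusted p = 6.85e-07). JURKAT had the smallest change, with 5.71, 6.35 and 5.87 CPM in the untreated and 8.02, 7.90 and 8.98 CPM in the treated libraries (0.47 ± 0.15, adjusted p = 0.0465). Its groups did not overlap there, but the call was lost whichever of the 6 libraries was left out, with an adjusted p between 0.0631 and 0.128. It was 0.0896 with DESeq2 and 0.0870 with the replicate block.

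IRF1, a factor that binds the response element on its own and needs no interferon to do so, rose most in RAMOS, where it stood at 19.4, 19.8 and 19.4 CPM in the untreated and 83.9, 75.0 and 74.7 CPM in the treated libraries, a 3.99-fold rise (log2 2.00 ± 0.066, adjusted p = 3.35e-31). NALM6 had 91.9, 84.9 and 87.9 CPM in the untreated and 183, 174 and 178 CPM in the treated libraries (1.02 ± 0.053, adjusted p = 2.87e-22), and 697 had 93.2, 86.9 and 92.8 CPM in the untreated and 149 and 146 CPM in the treated libraries (0.69 ± 0.060, adjusted p = 1.58e-08). The untreated level of IRF1 was lowest in RAMOS and the treated level highest in NALM6. THP1 had 46.2, 49.3 and 44.9 CPM in the untreated and 64.9, 64.1 and 58.7 CPM in the treated libraries (0.42 ± 0.062, adjusted p = 1.10e-06), and U937 had 32.4 and 31.9 CPM in the untreated and 50.4, 45.6 and 44.2 CPM in the treated libraries (0.54 ± 0.078, adjusted p = 1.66e-06). JURKAT had 68.9, 68.6 and 70.6 CPM in the untreated and 76.8, 76.2 and 73.3 CPM in the treated libraries, and although these groups did not overlap, the log2 change of 0.12 ± 0.066 did not pass (adjusted p = 0.261).

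IRF9, the DNA-binding partner of STAT2, rose in NALM6, 697, RAMOS and U937. It stood at 10.6, 7.93 and 7.23 CPM in the untreated and 17.4, 18.2 and 17.6 CPM in the treated libraries of NALM6 (2.11-fold, log2 1.08 ± 0.13, adjusted p = 1.59e-10) and at 4.97, 5.02 and 5.05 CPM in the untreated and 11.6 and 10.9 CPM in the treated libraries of 697 (2.25-fold, log2 1.17 ± 0.15, adjusted p = 1.47e-06). U937 had 18.3 and 17.3 CPM in the untreated and 24.2, 22.4 and 23.6 CPM in the treated libraries (0.39 ± 0.092, adjusted p = 8.48e-04). RAMOS moved little, with 17.8, 17.4 and 16.9 CPM in the untreated and 20.3, 21.3 and 19.2 CPM in the treated libraries (0.23 ± 0.088, adjusted p = 0.0175), and this call was lost without untreated library 3 (adjusted p = 0.069), without treated library 2 (adjusted p = 0.0547) and in the joint fit of all lines (adjusted p = 0.0574). JURKAT had 17.2, 14.4 and 18.6 CPM in the untreated and 17.8, 17.8 and 18.03 CPM in the treated libraries and THP1 had 20.7, 22.6 and 23.5 CPM in the untreated and 24.4, 24.7 and 24.5 CPM in the treated libraries, and neither passed (adjusted p = 0.687 and 0.209). THP1 was the line with the highest untreated level of IRF9.

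STAT2, the signalling partner of IRF9, split the B-lineage lines. It rose in 697, from 21.6, 24.3 and 23.4 to 37.0 and 38.3 CPM (0.70 ± 0.088, adjusted p = 1.64e-06), in NALM6, from 50.7, 49.6 and 51.1 to 61.7, 65.2 and 67.6 CPM (0.36 ± 0.066, adjusted p = 3.21e-06), and in U937, from 38.8 and 34.5 to 56.0, 52.5 and 49.6 CPM (0.52 ± 0.077, adjusted p = 2.01e-06). RAMOS, which had the highest untreated level, fell from 119.7, 129 and 126 to 76.5, 73.8 and 73.4 CPM (-0.74 ± 0.048, adjusted p = 2.15e-19), so that all treated RAMOS libraries lay below all untreated ones. JURKAT had 35.3, 31.5 and 40.6 CPM untreated and 36.7, 32.5 and 42.0 CPM treated, with overlapping groups, and THP1 had 64.8, 62.9 and 66.9 CPM untreated and 57.7, 61.4 and 62.1 CPM treated. Neither passed (adjusted p = 0.853 and 0.18).

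**Figure D3:**
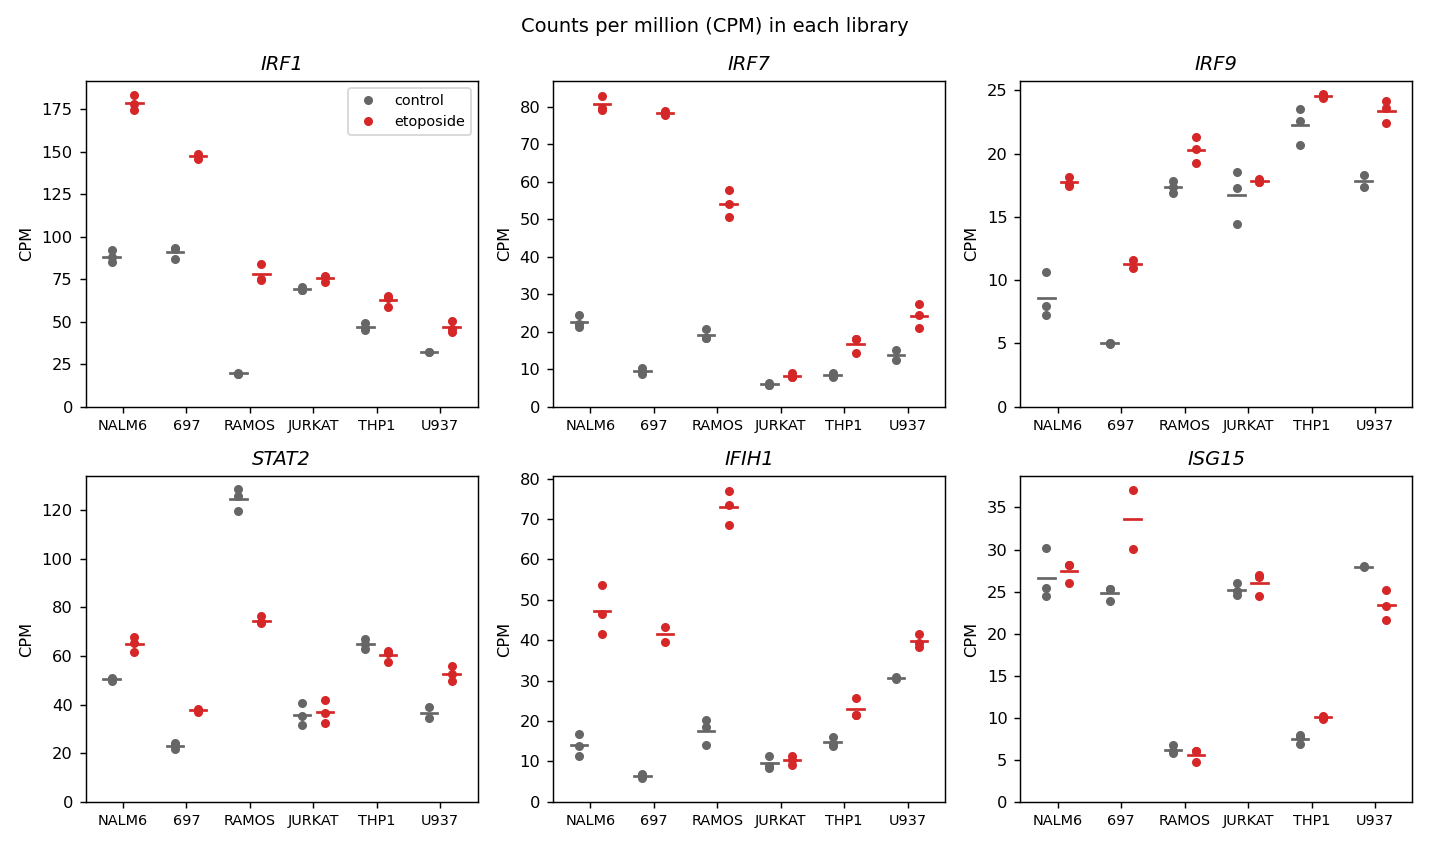
CPM of 6 members in every library, with untreated libraries in grey and treated ones in red, and a short line at each group's mean. IRF7 lies higher in the treated libraries of every line, STAT2 is far lower in treated than in untreated RAMOS, and ISG15 changes by at most 1.36-fold in any line.

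Among the sensors of viral RNA, IFIH1, which encodes the long double-stranded RNA sensor MDA5, rose in every line except JURKAT. In 697 it stood at 6.83, 5.94 and 6.65 CPM in the untreated and 39.5 and 43.4 CPM in the treated libraries, a rise of 6.35-fold (log2 2.67 ± 0.11, adjusted p = 7.84e-13). RAMOS had 14.1, 18.5 and 20.2 CPM in the untreated and 73.4, 68.6 and 77.0 CPM in the treated libraries (2.00 ± 0.073, adjusted p = 2.58e-29), and NALM6 had 16.7, 13.9 and 11.3 CPM in the untreated and 41.6, 53.7 and 46.4 CPM in the treated libraries (1.77 ± 0.11, adjusted p = 1.69e-16). Smaller rises were called in THP1 (0.63 ± 0.096, adjusted p = 1.56e-06) and U937 (0.37 ± 0.078, adjusted p = 2.34e-04), and in JURKAT the log2 change was 0.13 ± 0.15 (adjusted p = 0.624). DDX58, which encodes the sensor RIG-I, did not follow IFIH1 everywhere: it rose in 697 from 16.9 ± 1.53 to 36.5 ± 0.457 CPM (1.12 ± 0.097, adjusted p = 1.71e-08), but in NALM6 its log2 change was -0.06 ± 0.10 (adjusted p = 0.565) and in RAMOS -0.23 ± 0.20 (adjusted p = 0.322). In U937 its change of 0.30 ± 0.11 was called (adjusted p = 0.0339), a call that 6 of 12 alternative analyses lost. DDX60, a helicase linked to RIG-I signalling, fell in NALM6 (-0.95 ± 0.14, adjusted p = 6.29e-08) and, by less, in THP1 (-0.23 ± 0.082, adjusted p = 0.0293), where 6 of 13 alternatives lost the call.

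The IFIT genes, whose products bind foreign RNA and block its translation, split in NALM6. There, IFIT1 fell from 8.94, 8.27 and 9.95 to 0.728, 0.666 and 0.290 CPM, 15.4-fold lower (log2 -3.95 ± 0.25, adjusted p = 7.29e-19). It passed the count minimum through the untreated libraries only, with 505 reads there and 27 in the treated ones. IFIT3 in the same libraries rose from 29.8, 24.6 and 25.5 to 53.7, 52.6 and 52.8 CPM, 2.02-fold higher (log2 1.01 ± 0.078, adjusted p = 5.16e-16). No library of one group reached the range of the other for either gene.

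In 697, IFIT3 rose from 5.49, 5.39 and 6.91 to 54.3 and 57.0 CPM, 9.30-fold higher (log2 3.22 ± 0.11, adjusted p = 7.84e-14), the largest rise of any tested member in any line. IFIT1 stood at 1.43, 1.55 and 2.08 CPM in the untreated and 1.57 and 2.08 CPM in the treated libraries, with overlapping groups and a log2 change of 0.08 ± 0.33 (adjusted p = 0.836). The treated mean of IFIT3 was 53.0 CPM in NALM6 and 55.7 CPM in 697, from untreated means of 26.6 and 5.93 CPM. CPM were scaled within each line, so the levels of both lines are not on a common scale. JURKAT had 2.12, 2.26 and 3.19 CPM in the untreated and 0.676, 1.26 and 1.29 CPM in the treated libraries for IFIT1 (-1.29 ± 0.32, adjusted p = 0.00947), a call lost without untreated library 3 (adjusted p = 0.0849) or treated library 1 (adjusted p = 0.0824). In U937, where IFIT1 and IFIT3 stood at 10.9 and 24.8 CPM before treatment, their log2 changes were 0.10 ± 0.12 and 0.17 ± 0.089 and did not pass (adjusted p = 0.522 and 0.122).

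IFIT2, the neighbour of IFIT3, which shares exonic bases with LIPA, went down in NALM6, from 11.4, 10.8 and 10.3 to 8.37, 7.02 and 7.62 CPM (-0.49 ± 0.14, adjusted p = 0.00106). It went up in 697, from 0.956, 1.05 and 1.73 to 2.88 and 3.60 CPM (1.34 ± 0.32, adjusted p = 0.00106), and in U937, from 21.8 and 21.5 to 27.6, 27.4 and 30.2 CPM (0.39 ± 0.087, adjusted p = 4.90e-04). In THP1 it rose from 1.70, 2.03 and 1.76 to 3.17, 2.77 and 2.83 CPM (0.67 ± 0.24, adjusted p = 0.0263), a call lost without untreated library 1 or 3 or treated library 1 (adjusted p = 0.0635, 0.0617 and 0.111). RAMOS had 0.856, 0.708 and 0.413 CPM in the untreated and 0.481, 0.596 and 0.548 CPM in the treated libraries and JURKAT had 6.14, 3.91 and 6.19 CPM in the untreated and 5.07, 5.31 and 4.42 CPM in the treated libraries, with overlapping groups in both lines (adjusted p = 0.703 and 0.72). IFIT5, the RNA-binding neighbour of IFIT1, fell in NALM6 (-0.81 ± 0.094, adjusted p = 1.35e-10) and 697 (-0.75 ± 0.10, adjusted p = 4.01e-06) and rose in U937 (1.19 ± 0.27, adjusted p = 6.27e-04). In JURKAT it was called higher (0.33 ± 0.10, adjusted p = 0.0323), and 6 of 13 alternatives lost that call.

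The OAS genes encode enzymes that sense double-stranded RNA and make the messenger that activates RNase L. Of the 3 in the cluster on chromosome 12, the outer OAS1 and OAS2 fell in all 3 B-lineage lines, while OAS3 between them rose in both pre-B lines. OAS2 fell in NALM6 from 35.5, 41.6 and 38.9 to 11.2, 9.44 and 10.1 CPM, 3.80-fold lower (log2 -1.92 ± 0.099, adjusted p = 2.03e-22), and in RAMOS from 26.8, 30.1 and 30.0 to 6.52, 8.64 and 8.90 CPM, 3.74-fold lower (log2 -1.90 ± 0.10, adjusted p = 1.93e-22). In 697 the OAS2 log2 change was -1.05 ± 0.070, adjusted p = 5.58e-10, from an untreated mean of 85.5 CPM to 41.4 CPM. In all 3 lines the groups lay well apart.

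OAS1 fell in RAMOS from 47.1, 50.01 and 51.1 to 13.8, 16.2 and 14.6 CPM, 3.38-fold lower (log2 -1.75 ± 0.076, adjusted p = 2.25e-26), and in NALM6 from 7.81, 8.73 and 6.61 to 3.28, 2.12 and 3.26 CPM, 2.72-fold lower (log2 -1.45 ± 0.19, adjusted p = 3.12e-09). In 697 its call was weak (3.87, 4.71 and 5.63 to 3.80 and 2.28 CPM, -0.60 ± 0.25, adjusted p = 0.0366) and was lost in 7 of 12 alternatives, among them those without untreated library 2 or 3 or treated library 2 (adjusted p = 0.0647, 0.178 and 0.246). OAS3 rose in 697 from 7.93, 9.16 and 7.84 to 28.6 and 31.9 CPM, 3.65-fold higher (log2 1.87 ± 0.11, adjusted p = 1.71e-10), and in NALM6 from 34.6, 40.1 and 39.4 to 89.0, 90.3 and 95.02 CPM, 2.38-fold higher (log2 1.25 ± 0.067, adjusted p = 1.14e-21). In RAMOS, where both neighbours fell more than 3-fold, OAS3 stood at 39.0, 39.0 and 36.6 CPM in the untreated and 39.9, 34.2 and 34.03 CPM in the treated libraries, a log2 change of -0.07 ± 0.069 (adjusted p = 0.388).

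Outside the B lineage the OAS genes moved little. OAS3 was called higher in U937, from 59.0 and 62.3 to 93.7, 86.5 and 79.3 CPM (0.51 ± 0.068, adjusted p = 3.39e-07), and in JURKAT, from 25.5, 25.3 and 27.7 to 35.9, 32.1 and 34.1 CPM (0.38 ± 0.090, adjusted p = 0.00668), where the call was lost without treated library 1 (adjusted p = 0.0623). In THP1 its log2 change of 0.23 ± 0.091 just missed (adjusted p = 0.0512). OAS1 and OAS2 were called in none of these 3 lines, with log2 changes between -0.19 ± 0.13 (OAS2 in THP1) and 0.53 ± 0.21 (OAS2 in JURKAT). OASL, a relative without the enzyme activity, was testable in JURKAT, THP1 and U937 and was not called there.

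**Figure D4:**
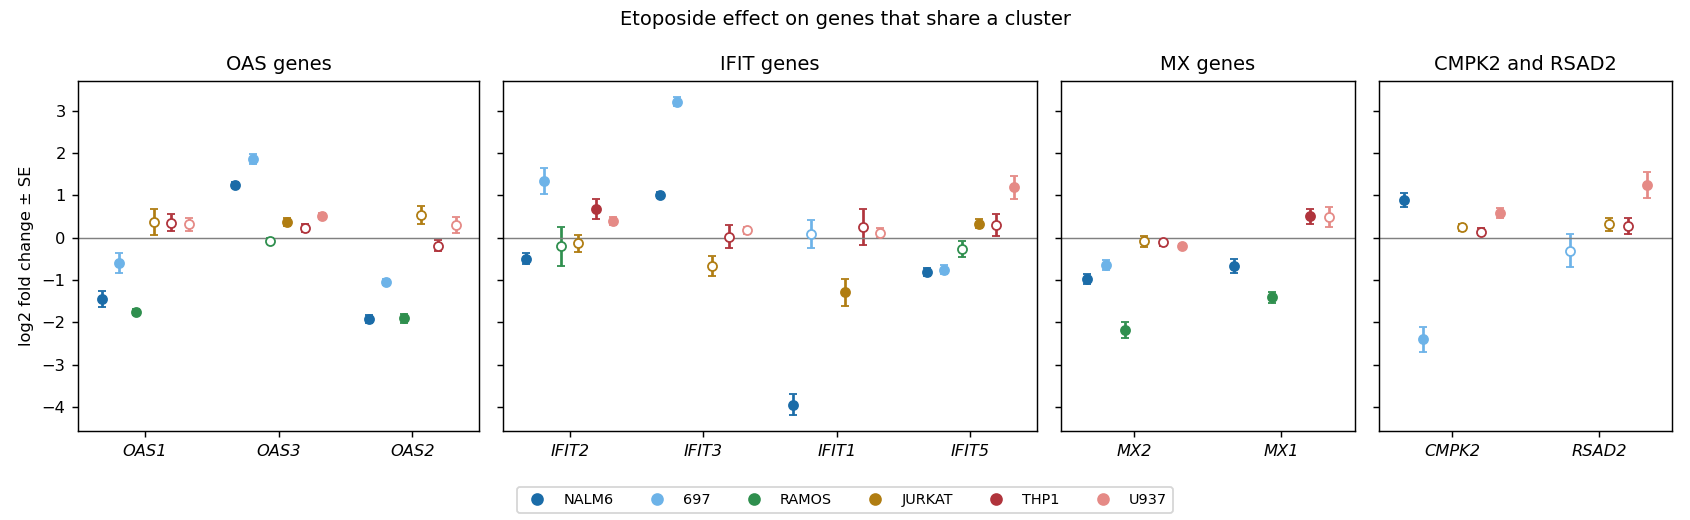
Log2 fold change of etoposide over control, with its standard error, for members that share a cluster, in genomic order within each panel. Colours mark the lines, filled points passed the test and open points did not, and untested genes have no point. OAS3 lies above OAS1 and OAS2 in NALM6, 697 and RAMOS, and IFIT3 lies above IFIT1 in NALM6 and 697.

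The MX genes, GTPases that trap incoming viruses, rose only once. MX2 fell in RAMOS from 7.09, 6.90 and 7.53 to 1.36, 1.79 and 1.71 CPM, 4.53-fold lower (log2 -2.18 ± 0.20, adjusted p = 5.85e-14), and MX1 beside it fell from 12.6, 16.6 and 17.5 to 6.21, 6.41 and 5.41 CPM, 2.66-fold lower (log2 -1.41 ± 0.12, adjusted p = 1.34e-14). MX2 also fell in NALM6 (-0.98 ± 0.11, adjusted p = 1.65e-10), 697 (-0.64 ± 0.12, adjusted p = 1.05e-04) and, from a far higher level, in U937 (136 ± 0.465 to 119 ± 2.32 CPM, -0.20 ± 0.053, adjusted p = 0.00251). MX1 fell in NALM6 (-0.66 ± 0.17, adjusted p = 3.75e-04) and was called higher in THP1 (0.51 ± 0.18, adjusted p = 0.024), where its groups overlapped and 3 of 13 alternatives lost the call.

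ISG15, which encodes a ubiquitin-like protein, hardly moved in any line. It was called higher in 697, from 25.3, 23.9 and 25.4 to 37.1 and 30.1 CPM (0.44 ± 0.098, adjusted p = 6.47e-04), and in THP1, from 7.66, 7.94 and 6.92 to 9.85, 9.99 and 10.2 CPM (0.42 ± 0.13, adjusted p = 0.00979). It was called lower in U937, from 28.1 and 27.9 to 25.2, 21.6 and 23.3 CPM (-0.26 ± 0.088, adjusted p = 0.0161), a call lost without either untreated library (adjusted p = 0.101 and 0.0782) or without treated library 2 (adjusted p = 0.104), and with total counts only (adjusted p = 0.0709). No change exceeded 1.36-fold.

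NALM6 had 25.4, 30.1 and 24.4 CPM in the untreated and 28.2, 26.0 and 28.2 CPM in the treated libraries of ISG15, RAMOS had 5.99, 6.77 and 5.79 CPM in the untreated and 6.04, 6.03 and 4.79 CPM in the treated libraries, and JURKAT had 26.0, 25.04 and 24.6 CPM in the untreated and 24.5, 26.9 and 26.7 CPM in the treated libraries. All 3 pairs of groups overlapped, with adjusted p = 0.829, 0.43 and 0.802. HERC5, which attaches ISG15, rose in NALM6 (0.42 ± 0.055, adjusted p = 3.90e-09), 697 (0.36 ± 0.066, adjusted p = 1.08e-04) and JURKAT (0.35 ± 0.088, adjusted p = 0.0105), the last lost without untreated library 2 (adjusted p = 0.0527). Its neighbour HERC6 rose in NALM6 from 1.69, 1.46 and 2.43 to 5.82, 7.38 and 8.27 CPM, 3.98-fold higher (log2 1.99 ± 0.22, adjusted p = 2.96e-11), 4.14-fold in 697 (2.05 ± 0.27, adjusted p = 2.41e-06) and 1.46-fold in U937 (0.55 ± 0.13, adjusted p = 9.99e-04). USP18, which removes ISG15 and dampens the receptor, was testable in 5 lines and called in none.

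ISG20 rose in the pre-B lines from a low base, in NALM6 from 1.60, 2.32 and 2.09 to 5.82, 8.05 and 6.38 CPM (1.69 ± 0.21, adjusted p = 6.33e-10) and in 697 from 3.49, 3.03 and 2.93 to 8.21 and 10.4 CPM (1.55 ± 0.18, adjusted p = 7.90e-07). In RAMOS, where its untreated level was highest, it fell slightly, from 84.3 ± 4.38 to 71.4 ± 6.03 CPM (-0.24 ± 0.056, adjusted p = 1.51e-04). CMPK2 gave opposite results in the pre-B lines. It rose in NALM6 from 3.20, 4.89 and 4.31 to 9.28, 7.14 and 7.47 CPM, 1.85-fold higher (log2 0.89 ± 0.17, adjusted p = 1.04e-05), and fell in 697 from 7.50, 9.78 and 5.27 to 1.27 and 1.59 CPM, 5.28-fold lower (log2 -2.40 ± 0.30, adjusted p = 4.26e-06). RSAD2, which encodes the antiviral enzyme viperin and overlaps CMPK2 on the opposite strand, rose in U937 (0.956 ± 0.0863 to 2.26 ± 0.336 CPM, 1.24 ± 0.31, adjusted p = 0.00148), as did CMPK2 (0.59 ± 0.12, adjusted p = 9.88e-05). The strand setting of the counting is not given in the sources used here. Whether reads in the bases that these genes share were counted, and for which gene, is therefore uncertain. The same uncertainty holds for PARP9 with DTX3L, IFIT2 with LIPA, and IRF1, IRF9, ISG15, MX1, OAS1, SP100, XAF1 and IFITM3 with pseudogenes, antisense RNAs or other transcripts that share some of their exonic bases. IRF9 with AL136295.5 and SP100 with HMGB1P3 share bases on the same strand, where a strand setting would not part them.

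The membrane proteins that block or hold virus particles fell where they moved, with 1 exception. IFITM3 fell in NALM6, from 5.18, 12.01 and 8.63 to 3.40, 3.93 and 3.26 CPM (-1.37 ± 0.22, adjusted p = 3.47e-06), and its log2 change in 697 was 0.01 ± 0.11 (adjusted p = 0.91). IFITM2 fell in NALM6 (297 ± 10.7 to 184 ± 13.6 CPM, -0.70 ± 0.050, adjusted p = 7.68e-17), 697 (-0.24 ± 0.065, adjusted p = 0.00294) and U937 (-0.23 ± 0.057, adjusted p = 0.00129), the last lost in 2 of 12 alternatives. IFITM1 was called lower in 697 (-0.34 ± 0.13, adjusted p = 0.0216), lost in 7 of 12. The IFITM genes are related in sequence and IFITM1 and IFITM2 share exonic bases, so the division of reads among them is uncertain. BST2, which tethers budding virus particles, fell in NALM6 (-0.49 ± 0.066, adjusted p = 6.58e-09) and was called lower in 697 (-0.22 ± 0.098, adjusted p = 0.0481, lost in 9 of 12 alternatives), but rose in RAMOS from 111 ± 7.51 to 133 ± 6.61 CPM (0.27 ± 0.048, adjusted p = 1.83e-06).

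Among the ADP-ribosyltransferases, PARP9 and PARP14 parted in the pre-B lines. PARP9 fell in 697, from 39.5, 41.6 and 40.2 to 17.1 and 16.1 CPM (-1.28 ± 0.090, adjusted p = 1.09e-09), and in NALM6 (36.2 ± 0.776 to 19.6 ± 0.310 CPM, -0.89 ± 0.085, adjusted p = 5.45e-13), and rose in U937 (0.49 ± 0.087, adjusted p = 2.52e-05). It was called higher in JURKAT (0.26 ± 0.076, adjusted p = 0.0259), lost in 6 of 13 alternatives. DTX3L, whose product binds PARP9 and whose gene shares exonic bases with it on the opposite strand, was called in the same direction in these 4 lines, with log2 changes of -1.06 ± 0.064 in 697, -0.68 ± 0.064 in NALM6, 0.51 ± 0.065 in U937 and 0.27 ± 0.070 in JURKAT. PARP14 was called higher in 5 lines, clearly in RAMOS (13.1 ± 0.685 to 23.0 ± 2.60 CPM, 0.79 ± 0.095, adjusted p = 3.00e-10) and U937 (0.46 ± 0.077, adjusted p = 1.28e-05). Its rises in NALM6 (0.16 ± 0.058), 697 (0.15 ± 0.060) and JURKAT (0.22 ± 0.066) were at most 1.16-fold and were lost in 5 of 13, 7 of 12 and 6 of 13 alternatives.

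SAMD9 and its neighbour SAMD9L, which hold back poxviruses and cell growth, moved as a pair. Both fell in NALM6 (SAMD9 -1.05 ± 0.074, adjusted p = 2.57e-17, SAMD9L -0.33 ± 0.12, adjusted p = 0.00778) and both rose in RAMOS (0.48 ± 0.072, adjusted p = 1.04e-07 and 0.57 ± 0.12, adjusted p = 6.44e-05) and U937 (0.48 ± 0.097, adjusted p = 1.50e-04 and 0.74 ± 0.19, adjusted p = 0.002). The SAMD9L calls in NALM6 and U937 were each lost in 1 alternative. SP100, a protein of nuclear bodies, fell in RAMOS (-0.52 ± 0.066, adjusted p = 1.91e-09), THP1 (-0.25 ± 0.053, adjusted p = 3.30e-04) and, with 2 of 13 alternatives against the call, NALM6 (-0.21 ± 0.074, adjusted p = 0.00793). XAF1, a promoter of cell death, was lower in NALM6 (-0.25 ± 0.091, adjusted p = 0.0125, lost in 3 of 13 alternatives) and higher in 697 (0.40 ± 0.11, adjusted p = 0.00388).

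IFI6, a mitochondrial and endoplasmic reticulum protein, rose in 697 from 1.62, 1.86 and 1.95 to 6.37 and 6.57 CPM, 3.56-fold higher (log2 1.83 ± 0.21, adjusted p = 6.40e-07), rose in NALM6 (0.56 ± 0.12, adjusted p = 4.13e-05) and fell in U937 from 39.3 ± 1.66 to 30.0 ± 3.69 CPM (-0.40 ± 0.088, adjusted p = 4.45e-04). IFI27 was called in NALM6 only, at 1.32 CPM after treatment, and IFI44L in 697 only, at 1.26 CPM, with overlapping groups and the call lost in 4 of 11 alternatives. IFI44 fell in NALM6 (-0.65 ± 0.18, adjusted p = 0.00132). IFI35 fell in NALM6 (-0.45 ± 0.094, adjusted p = 3.17e-05) and RAMOS (-0.42 ± 0.10, adjusted p = 3.33e-04). LGALS3BP, a secreted glycoprotein, fell in all 3 B-lineage lines, from 123 ± 5.34 to 66.6 ± 1.34 CPM in NALM6 (-0.88 ± 0.058, adjusted p = 1.78e-18), from 208 ± 4.28 to 142 ± 6.05 CPM in 697 (-0.55 ± 0.056, adjusted p = 1.26e-07) and from 7.83 ± 0.549 to 3.98 ± 0.835 CPM in RAMOS (-0.96 ± 0.16, adjusted p = 6.04e-07). EPSTI1 was testable in JURKAT and THP1 and was called in neither.

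The difference of the etoposide effect between lines was tested in 1 fit of all 34 libraries. With the pre-B lines set against the mean of the other 4, the effect was higher for 11 members and lower for 13, against 30.7% and 28.1% of all 17008 genes. Against that mean, the effect in the pre-B lines was higher for IFIT3 (difference in log2 change 2.28 ± 0.19, adjusted p = 6.38e-17), ISG20 (1.97 ± 0.19, adjusted p = 3.87e-14), HERC6 (1.75 ± 0.25, adjusted p = 1.08e-08), IRF7 (1.47 ± 0.092, adjusted p = 6.94e-23), IFIH1 (1.41 ± 0.10, adjusted p = 7.24e-19) and OAS3 (1.28 ± 0.082, adjusted p = 2.39e-22). For IRF7 and IFIH1 the effect was positive on both sides, at 2.42 against 0.95 and 2.198 against 0.79. The mean of the other 4 lines covers unlike values: the IFIH1 rise was larger in RAMOS (2.00 ± 0.073) than in NALM6 (1.77 ± 0.11). The effect was lower against that mean for IFIT1 (-1.70 ± 0.27, adjusted p = 1.15e-07), PARP9 (-1.29 ± 0.090, adjusted p = 1.29e-20), OAS2 (-1.19 ± 0.11, adjusted p = 6.08e-15), IFIT5 (-1.19 ± 0.13, adjusted p = 2.61e-12), OAS1 (-0.86 ± 0.17, adjusted p = 1.18e-05) and CMPK2 (-0.82 ± 0.26, adjusted p = 0.00494). OAS1 and OAS2 also fell in RAMOS, by log2 changes of -1.75 ± 0.076 and -1.90 ± 0.10, against -1.45 ± 0.19 and -1.92 ± 0.099 in NALM6. For IFIT1 the log2 change was -3.95 ± 0.25 in NALM6 and 0.08 ± 0.33 in 697. IFIT1, IFIT3, HERC6 and CMPK2 were too low to be tested in RAMOS alone, with 25 and 23, 28 and 22, 11 and 11, and 15 and 8 reads in untreated and treated libraries.

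The mean of the pre-B lines hides that CMPK2 went opposite ways in them, and without treated RAMOS library 1 its difference was -0.55 with an adjusted p of 0.276. Beside these differences, pre-B markers fell from 3954 to 4109 CPM to 1489 to 1616 CPM in NALM6 and from 4022 to 4105 CPM to 1381 to 1450 CPM in 697. The summed level of myeloid markers rose from 47.2 to 51.6 CPM to 89.5 to 99.4 CPM in NALM6, with 3 of 9 called higher and 1 lower. In 697 that sum rose from 28.7 to 30.9 CPM to 113 to 118 CPM, with 4 of 9 called higher and 1 lower. The number of genes with a count rose from at most 14978 to at least 15908 in NALM6 and from at most 14738 to at least 16408 in 697. The part of these changes in the result was not tested, and pool and treatment cannot be told apart in these lines.

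Between the pre-B lines themselves, which share their layout of pools, the effect was higher in NALM6 for 4 members and lower for 19, against 15.1% and 16.1% of all genes. The median difference was -0.37 for the members and -0.00 for all genes. The effect in NALM6 was lower for IFIT1 (-4.02 ± 0.42, adjusted p = 2.88e-12), IFIT3 (-2.21 ± 0.18, adjusted p = 9.48e-16), IFIT2 (-1.82 ± 0.28, adjusted p = 2.95e-07), IFITM3 (-1.41 ± 0.22, adjusted p = 5.54e-07) and IFI6 (-1.28 ± 0.22, adjusted p = 3.26e-06). The difference for MX1 (-1.62 ± 0.62, adjusted p = 0.0384) rests on NALM6, since MX1 was too low to be tested in 697 alone, with 13 reads in untreated and 16 in treated libraries. It lost the call in 6 of 17 alternatives, with an adjusted p of 0.535 without treated 697 library 1.

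CMPK2 gave the largest difference in the other direction (3.26 ± 0.29, adjusted p = 9.72e-15). The other members with a higher effect in NALM6 were RSAD2 (2.11 ± 0.60, adjusted p = 0.00433), PARP9 (0.39 ± 0.13, adjusted p = 0.0146) and IRF1 (0.33 ± 0.090, adjusted p = 0.00306). The PARP9 difference was lost without treated 697 library 2 (adjusted p = 0.0789), and RSAD2 was too low to be tested in NALM6 alone. IRF7, DDX58 and IFIH1 also had a lower effect in NALM6, with differences in log2 change of -1.23, -1.19 and -0.90, although IRF7 and IFIH1 rose in both lines. The untreated mean was 22.6 CPM in NALM6 against 9.41 CPM in 697 for IRF7 and 13.96 against 6.47 CPM for IFIH1. For DDX58 it was 19.3 against 16.9 CPM, with overlapping libraries (18.57 to 19.77 CPM in NALM6 and 15.78 to 18.64 CPM in 697). These levels between lines were not tested.

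**Figure D5:**
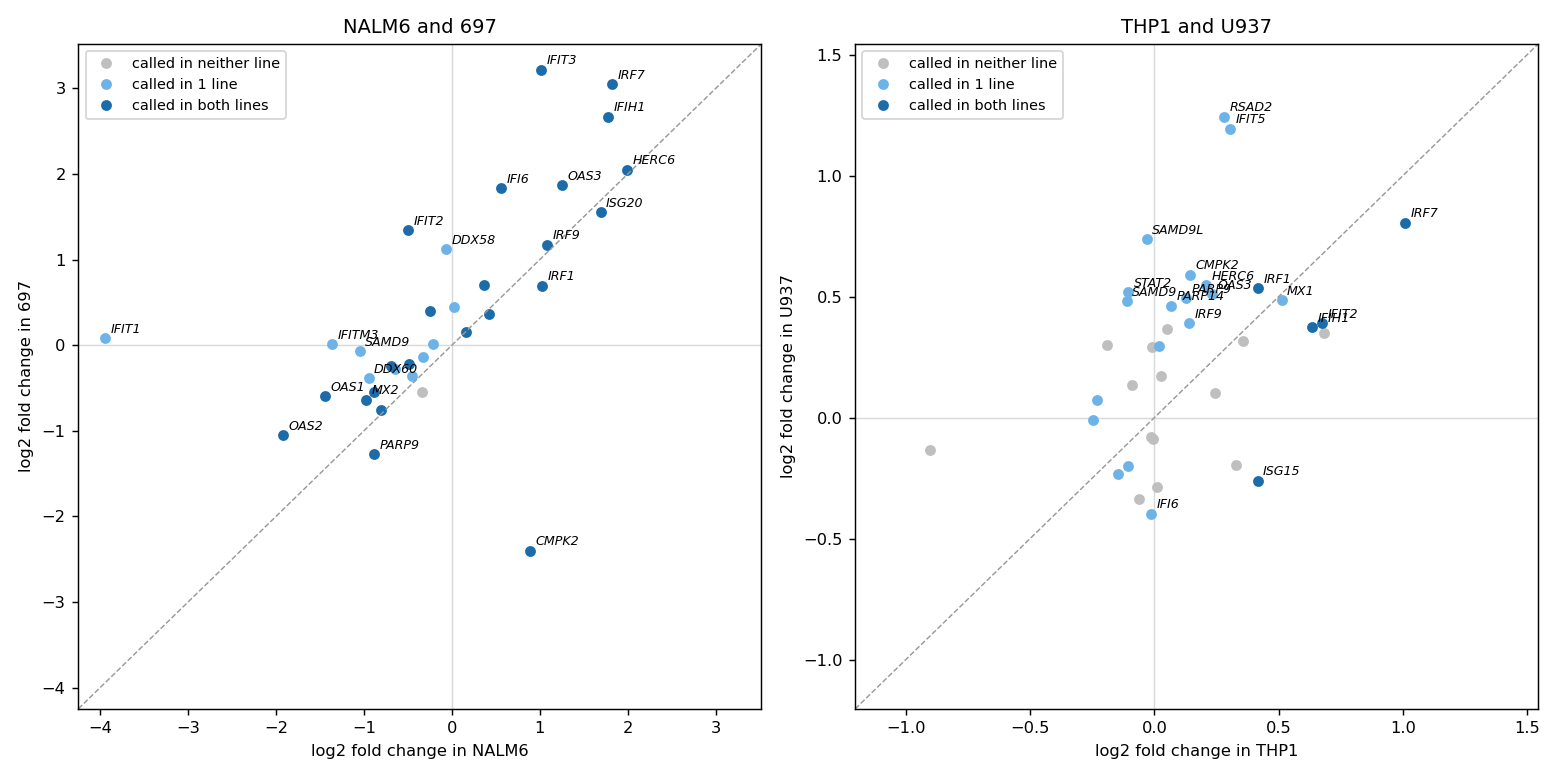
Log2 fold change of each tested member in NALM6 against 697 (left) and in THP1 against U937 (right), with a dashed line of equal change and darker points for members called in both lines. In the left panel most points lie above the dashed line and CMPK2 and IFIT1 lie far from it, and in the right panel IRF7 is the point farthest to the right.

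Between the myeloid lines, which share 1 pool identifier, the effect in THP1 was higher for 1 member and lower for 6, against 5.96% and 7.06% of all genes. Without untreated U937 library 1 the lower members numbered 3, and 1181 genes differed in all against 2215. With the replicate block 1037 genes differed. The member with the higher effect was ISG15 (0.67 ± 0.15, adjusted p = 0.00139), with log2 changes of 0.42 against -0.25. STAT2 (-0.63 ± 0.11, adjusted p = 3.00e-05), SAMD9 (-0.60 ± 0.13, adjusted p = 4.60e-04), SAMD9L (-0.78 ± 0.19, adjusted p = 0.00285), PARP14 (-0.40 ± 0.10, adjusted p = 0.00421) and PARP9 (-0.37 ± 0.12, adjusted p = 0.03) had a lower effect in THP1, each with a called rise in U937. The PARP9 difference was lost in 8 of 17 alternatives and the SAMD9L difference without untreated U937 library 1 (adjusted p = 0.0818). The sixth member, IFIT5, lay at the threshold (-0.90 ± 0.32, adjusted p = 0.0499). Beside this, the summed level of myeloid markers went from 3270 to 3555 CPM to 3089 to 3299 CPM in THP1 and from 4776 to 4780 CPM to 4376 to 4394 CPM in U937. Its part in the result was not tested.

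The interferon genes that were looked up had few reads. Among the 15 type I and III symbols, IL29, IL28A and IL28B are older names of IFNL1, IFNL2 and IFNL3. Of the IFNA genes only IFNA1, IFNA2, IFNA5, IFNA8 and IFNA13 were looked up. In the files were 12 of the 15 type I and III symbols, and none of these reached 1 CPM in any library. IFNW1 in 697 was the only one with enough counts to test (0.399 to 0.621 CPM in untreated and 0 to 0.349 CPM in treated libraries) and was not called (adjusted p = 0.135). IFNB1, the first interferon gene that most cells switch on, had 0 reads in all 6 NALM6 libraries, 1 read in untreated and 5 in treated 697, and 5 in untreated and 34 in treated U937, where 1 treated library held 0.794 CPM and the lowest 0.0384 CPM. IFNG, the type II gene, could be tested in RAMOS only (0.459 to 1.47 CPM in untreated and 1.27 to 1.57 CPM in treated libraries, adjusted p = 0.127). In 697, IFNG had 0 reads in the untreated and 43 in the treated libraries, which stood at 0.346 and 1.66 CPM, and it did not pass the count minimum.

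The counts of the further lists below are descriptions, to be read against the shares of all genes called in each line given with the members. Of 9 receptor and kinase genes of the pathway, 3 were higher and 4 lower in NALM6, 7 higher and 1 lower in 697, and 4 higher and 3 lower in RAMOS. JURKAT had 2 lower, THP1 had 1 higher and 3 lower, and U937 had 1 lower. TYK2, the kinase of the IFNAR1 chain, rose in all 3 B-lineage lines, in 697 from 112 ± 7.92 to 472 ± 24.6 CPM (2.07 ± 0.062, adjusted p = 2.37e-14), in NALM6 from 156 ± 11.5 to 373 ± 15.04 CPM (1.26 ± 0.050, adjusted p = 3.68e-26) and in RAMOS from 224 ± 9.24 to 453 ± 1.001 CPM (1.01 ± 0.040, adjusted p = 4.41e-28). It was also called in THP1, with a log2 change of 0.11 ± 0.043. IFNGR2, a chain of the receptor for interferon gamma, rose in NALM6 (1.81 ± 0.19), 697 (1.27 ± 0.11) and RAMOS (1.06 ± 0.055) and fell in U937 (-0.40 ± 0.062). JAK1, the partner kinase, fell in RAMOS from 421 ± 12.1 to 218 ± 3.04 CPM (-0.95 ± 0.039, adjusted p = 3.51e-27) and in NALM6 (-0.25 ± 0.052, adjusted p = 3.16e-05).

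Of the 7 signal factors that are no members, IRF2, which competes with IRF1 for the same element, fell in 5 lines. Its log2 change was -2.62 ± 0.098 in 697, -1.64 ± 0.071 in RAMOS, -1.53 ± 0.072 in NALM6, -0.49 ± 0.10 in U937 and -0.34 ± 0.089 in THP1, all called, and 0.05 ± 0.15 in JURKAT (adjusted p = 0.876). In all, 2 of the 7 factors were higher and 4 lower in NALM6, 3 and 3 in 697, 2 and 3 in RAMOS, and 1 and 4 in U937. JURKAT had 1 lower, STAT3, and THP1 had 4 lower.

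Of 9 feedback inhibitors, SOCS1, which blocks the JAK kinases, rose most. It went from 2.16 ± 0.174 to 42.9 ± 9.29 CPM in 697 (4.32 ± 0.16, adjusted p = 7.71e-13) and from 0.668 ± 0.0241 to 12.4 ± 0.505 CPM in NALM6 (4.21 ± 0.21, adjusted p = 1.35e-22), and fell in RAMOS from 19.3 ± 4.01 to 14.01 ± 1.03 CPM (-0.49 ± 0.11, adjusted p = 7.09e-05). The phosphatase gene PTPN6 fell in NALM6, 697, RAMOS, THP1 and U937, with log2 changes from -2.31 ± 0.15 in RAMOS to -0.21 ± 0.043 in THP1. The list as a whole had 1 higher and 4 lower in NALM6, 3 and 4 in 697, 1 and 3 in RAMOS, 1 and 1 in JURKAT, 1 and 2 in THP1, and 2 and 3 in U937.

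Among 12 adaptors and kinases that lead to interferon genes, TICAM1, the adaptor of the receptor TLR3, was called higher in all 6 lines. Its log2 change was largest in NALM6 (20.1 to 24.6 CPM in untreated and 64.7 to 81.8 CPM in treated libraries, 1.72 ± 0.084, adjusted p = 2.11e-21) and smallest in RAMOS (0.34 ± 0.061, adjusted p = 4.01e-06). TMEM173, which encodes the DNA-sensing adaptor STING, fell in 697 (-0.65 ± 0.16), JURKAT (-0.41 ± 0.10), THP1 (-0.41 ± 0.043) and U937 (-0.42 ± 0.056). MB21D1, which encodes the DNA sensor cGAS, rose in NALM6 (1.16 ± 0.13), 697 (0.65 ± 0.14), THP1 (0.33 ± 0.074) and U937 (0.77 ± 0.088). This list had 3 higher and 5 lower in NALM6, 6 and 4 in 697, 6 and 4 in RAMOS, 1 and 1 in JURKAT, 4 and 2 in THP1, and 5 and 4 in U937.

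Of 16 genes known from the response to interferon gamma, 8 of 10 tested were higher and 1 lower in NALM6, 9 of 10 were higher in 697, and 5 of 7 were higher and 1 lower in RAMOS, where 41.3%, 39.4% and 34.2% of all genes were higher and 40.3%, 36.9% and 35.5% lower. JURKAT had 7 tested and no call, THP1 had 2 higher and 1 lower of 9 (14% and 17% of all genes), and U937 had 1 higher of 9 (22.1%). ICAM1, an adhesion molecule that NF-κB also controls, rose from 2.79 ± 0.308 to 392 ± 28.1 CPM in 697 (7.12 ± 0.087, adjusted p = 2.65e-19), from 22.6 ± 1.32 to 523 ± 1.33 CPM in NALM6 (4.52 ± 0.057, adjusted p = 1.12e-46) and from 119.5 ± 1.61 to 932 ± 32.0 CPM in RAMOS (2.96 ± 0.043, adjusted p = 9.98e-47). It also rose in THP1 (1.33 ± 0.15, adjusted p = 1.62e-09) and U937 (0.45 ± 0.066, adjusted p = 1.63e-06). CIITA, the master regulator of MHC class II, rose in NALM6 (1.74 ± 0.049, adjusted p = 1.08e-32), 697 (2.43 ± 0.071, adjusted p = 1.75e-14) and RAMOS (0.99 ± 0.045, adjusted p = 1.34e-25). The median log2 change of the tested genes of this list was 1.22 in NALM6, 3.18 in 697 and 0.99 in RAMOS.

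A further list held 37 interferon-stimulated genes that are no members, 36 of them in the files. In NALM6, 11 of 34 tested were higher and 18 lower, against 41.3% and 40.3% of all genes. In 697 it was 16 and 12 of 33, against 39.4% and 36.9%, and in RAMOS 8 and 18 of 31, against 34.2% and 35.5%. JURKAT had 3 and 3 of 31, against 6.71% and 6.27%, THP1 had 6 and 5 of 33, against 14% and 17%, and U937 had 12 and 4 of 31, against 22.1% each way. TRIM22, an antiviral ligase that p53 also controls, rose in NALM6 from 85.6 ± 5.59 to 477 ± 16.6 CPM (2.49 ± 0.051, adjusted p = 5.51e-38) and in 697 from 47.2 ± 0.506 to 256 ± 7.84 CPM (2.44 ± 0.058, adjusted p = 8.97e-16), and fell in RAMOS (-0.74 ± 0.073, adjusted p = 9.41e-13). SLFN5, a member of the Schlafen family, rose in every line except JURKAT, most in RAMOS (2.69 ± 0.29, adjusted p = 8.21e-12) and least in THP1 (0.65 ± 0.15, adjusted p = 8.12e-04). IFI16, a nuclear DNA sensor, fell in RAMOS from 131 ± 4.46 to 65.8 ± 2.99 CPM (-0.999 ± 0.049, adjusted p = 5.35e-24) and, by less, in NALM6, 697, JURKAT and THP1.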

How the data were processed

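Each library has 1 deposited file of raw read counts by gene symbol, which its name attributes to htseq-count. The submitters' processing notes name HISAT, HTSeq, DESeq2 and the build hg19, with no version. RNA was extracted with Trizol and prepared with a TruSeq RNA kit from cells in RPMI with fetal calf serum, per the labels' protocols. The strand setting of the counting is not given in these sources. The authors' own comparison tables were not used.

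In R 4.3.3 with edgeR 4.0.16, each line was fitted on its own: filterByExpr with a minimum count of 10, TMM scaling, robust glmQLFit and glmQLFTest, two-sided, with Benjamini-Hochberg adjustment over all genes tested. The threshold for a call was an adjusted p of 0.05. CPM use library sizes scaled by TMM within each line, so levels are not scaled between lines. For CPM, ± is the SD between libraries. For log2 changes, ± is a standard error worked back from the test. It is the absolute log2 change divided by the square root of the F statistic. Differences between lines were contrasts in 1 fit of all libraries. Alternatives were other size factors, other count minimums, DESeq2 1.42.0, the joint fit, the replicate block and leaving out each library. The scripts were tested on simulated counts.

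Per-library values were given for members called with a log2 change of at least 1 and a mean of at least 5 CPM (at most 8 a line), for IRF1, STAT2, IRF9, ISG15 and IFIT2 in every line, and for up to 6 members per contrast and direction. Of the other lists, up to 3 genes a line with the smallest adjusted p were named, and DTX3L, JAK1, IFNB1, IFNW1 and IFNG as well. The members, lists and rules were chosen with earlier results of these data known. Exons shared by genes were taken from GENCODE 29, and 14 of the 41 members share exonic bases with another gene. No coordinate of these annotations was joined to the counts. Depth of 8.18 to 37.1 M counts limits members under about 1 CPM.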

Additional observations from a re-analysis of the deposited data

Results flagged for a closer look

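The results below are the named members for which 2 groups of cell lines differed in their response to the same treatment. The test was edgeR's test of the difference itself. Each value is a difference in log2 fold change with its standard error. Between the pre-B lines and the other 4 lines it was -1.70 ± 0.27, adjusted p = 1.15e-07 for IFIT1, 2.28 ± 0.19, adjusted p = 6.38e-17 for IFIT3, -1.19 ± 0.13, adjusted p = 2.61e-12 for IFIT5, 1.41 ± 0.10, adjusted p = 7.24e-19 for IFIH1, 1.97 ± 0.19, adjusted p = 3.87e-14 for ISG20 and -0.86 ± 0.17, adjusted p = 1.18e-05 for OAS1. It was -1.19 ± 0.11, adjusted p = 6.08e-15 for OAS2, 1.28 ± 0.082, adjusted p = 2.39e-22 for OAS3, 1.47 ± 0.092, adjusted p = 6.94e-23 for IRF7, 1.75 ± 0.25, adjusted p = 1.08e-08 for HERC6, -1.29 ± 0.090, adjusted p = 1.29e-20 for PARP9 and -0.82 ± 0.26, adjusted p = 0.00494 for CMPK2. The CMPK2 difference was -0.55 with an adjusted p of 0.276 without treated RAMOS library 1. Of all 17008 genes, 30.7% were called higher and 28.1% lower in this contrast, so a called member there is no rarity. The IFIT1 log2 change was 0.08 in 697 and not called, and OAS1 and OAS2 also fell in RAMOS (-1.75 and -1.90). IFIT1, IFIT3, HERC6 and CMPK2 were too low to be tested in RAMOS alone. Pool and treatment cannot be told apart in the pre-B lines.

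Between NALM6 and 697 the difference was -4.02 ± 0.42, adjusted p = 2.88e-12 for IFIT1, -1.82 ± 0.28, adjusted p = 2.95e-07 for IFIT2, -2.21 ± 0.18, adjusted p = 9.48e-16 for IFIT3, -1.28 ± 0.22, adjusted p = 3.26e-06 for IFI6 and -1.41 ± 0.22, adjusted p = 5.54e-07 for IFITM3. It was -1.62 ± 0.62, adjusted p = 0.0384 for MX1, 0.33 ± 0.090, adjusted p = 0.00306 for IRF1, 0.39 ± 0.13, adjusted p = 0.0146 for PARP9 and 3.26 ± 0.29, adjusted p = 9.72e-15 for CMPK2. The MX1 difference was lost in 6 of 17 alternatives (adjusted p = 0.535 without treated 697 library 1), and MX1 was too low to be tested in 697 alone. The PARP9 difference was lost without treated 697 library 2 (adjusted p = 0.0789). Of all genes, 15.1% were called higher and 16.1% lower in this contrast.

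Between THP1 and U937 the difference was 0.67 ± 0.15, adjusted p = 0.00139 for ISG15, -0.63 ± 0.11, adjusted p = 3.00e-05 for STAT2, -0.60 ± 0.13, adjusted p = 4.60e-04 for SAMD9, -0.78 ± 0.19, adjusted p = 0.00285 for SAMD9L, -0.37 ± 0.12, adjusted p = 0.03 for PARP9 and -0.40 ± 0.10, adjusted p = 0.00421 for PARP14. Of all genes, 5.96% were called higher and 7.06% lower in this contrast. The PARP9 difference was lost in 8 of 17 alternatives and the SAMD9L difference without untreated U937 library 1 (adjusted p = 0.0818).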

How the results depend on the processing

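Of 2268 alternative values for 149 single-gene results, 120 kept their direction and fell short of the threshold, 8 changed sign and the rest kept their side. At least 1 alternative ended the call of 4 of 33 called members in NALM6, 5 of 27 in 697, 1 of 17 in RAMOS, 7 of 7 in JURKAT, 3 of 8 in THP1 and 4 of 20 in U937. The values that changed sign were uncalled: ISG15 in NALM6 was -0.027 without a filter on low counts and between -0.057 and 0.14 when 1 library was left out, STAT2 in JURKAT then ran from -0.046 to 0.15 and IRF9 in JURKAT from -0.00997 to 0.18.

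In JURKAT, leaving out 1 library gave 1 to 5 members higher (1 without treated library 1, 2 without untreated library 3 or treated library 3, 3 without untreated library 2), 0 to 1 lower (0 without untreated library 3 or treated library 1) and 1095 to 1582 genes called in all, against 1806 (1095 without treated library 1). DESeq2 gave 0 lower there, having no adjusted p for IFIT1, and the joint fit 2. In THP1, total counts only and the joint fit each gave 1 member lower, and leaving out 1 library 1 to 2 (1 without any treated library). In U937, leaving out 1 library gave 2 to 4 lower (2 without untreated library 2). For THP1 minus U937, leaving out 1 library gave 1181 to 2482 genes in all (1181 without untreated U937 library 1, 1452 without treated U937 library 3), 1 to 2 members higher (2 without treated THP1 library 3 or treated U937 library 1) and 3 to 6 lower (3 without untreated U937 library 1). The cause was not tested.

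With the replicate block, 2 members were higher in JURKAT and 1037 genes differed for THP1 minus U937, against 2215. Same-numbered libraries deviated from their group means with correlations between -0.25 and 0.09. Deviations from the mean of 2 or 3 libraries constrain each other, so these values cannot show whether same-numbered libraries were paired. In no line did every pair exceed 0.1. Counts under about 1 CPM limit what can be seen of IFI27, IFI44L, EPSTI1 and OASL.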
